A study of Felis catus with 12 samples.

Results

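The splicing factor and hnRNP genes were taken as every gene of the table whose symbol starts with SRSF and a digit, HNRNP, SF3A or SF3B and a digit, SNRP, or PRPF and a digit. This rule found 65 of the 30785 genes listed, namely 11 SRSF, 20 HNRNP, 9 SF3, 12 SNRP and 13 PRPF genes. The measurement was direct RNA sequencing of left ventricular tissue collected post mortem from 12 cats, with 1 library per cat. The study was of naturally occurring feline heart failure. Its cohort held cats with congestive heart failure, with arterial thromboembolism and without documented cardiac disease. The labels give the number of the cat and, in the library name, the flow cell on which the library was read. Cats 11, 23, 30 and 31 were read on flow cell A, cats 10, 15, 35 and 36 on flow cell B, and cats 22, 29, 37 and 38 on flow cell C. None of the groups carried a transgene or an experimental treatment, and because each cat was read on 1 flow cell only, flow cell and cat cannot be told apart. By the study's description of its cohort, cats 23, 30, 31 and 36 were female and cat 35 had no recorded sex. The other cat numbers belong to males, so sex was not balanced over flow cells, and it was not tested. Libraries labelled as cats 22 and 29 are not in the study's list of sequenced cats, which names 2 other cats that no label here carries. Whether these labels stand for those cats was not tested, so the libraries entered the comparison of flow cells and were left out of the relations with age, myocardial fibrosis and adipocyte percentage.

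Introns are removed from pre-mRNA by the spliceosome, which is built from small nuclear ribonucleoproteins (snRNPs) and a large set of further proteins. The Sm proteins encoded by most SNRP genes form a ring around the RNA of most of these snRNPs. The SF3A and SF3B proteins belong to the snRNP that recognises the branch site. The PRPF proteins act mainly in the tri-snRNP and in the catalytic steps. SR proteins (the SRSF genes) bind exons and mostly favour their inclusion, whereas heterogeneous nuclear ribonucleoproteins (hnRNPs) coat the transcript and often act in the opposite sense. In heart muscle, alternative splicing sets which isoforms of sarcomere and calcium-handling proteins are made.

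The depth was 789257 to 2263110 reads on genes per library, with reads on 12189 to 13987 genes, so these shallow libraries gave the median member between 32.0 and 126 reads. Values below are reads divided by the size factor of the library, called normalised reads, and the text compares them between libraries and not between genes, since no gene lengths were used. A gene was tested if 3 or more libraries had 10 or more reads of it, which 8820 genes passed, and of the 65 members 60 were tested. The members with too few reads were PRPF40B, SNRPD1, SNRPF, SNRPG and SRSF12, with at most 14 reads in any library, and for these 3 reads corresponded to 1.45 to 4.29 normalised reads depending on the library. The tissue was heart by its markers, as 9 cardiomyocyte genes took 7.42% to 14% of the reads in every library. The lists of genes that mark lymphocytes, neural cells and red cells had at most 18, 7 and 44 reads in any library. The red cell list held only HBM and ALAS2, because HBA1, HBB and HBA are not among the genes listed. It thus says little about red cell RNA. MYH7 is not among the genes listed either and so is not part of the cardiomyocyte share. The 13 genes encoded in mitochondria had no read. Among the cardiomyocyte genes MYL2 alone had 57300 to 187076 reads per library. The columns of cats 10 and 15, both on flow cell B, were assigned by their headers because the column numbers in the labels have them the other way round.

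The summed share of the 65 genes ranged from 0.314% to 0.585% of a library. The highest share was that of cat 11 (95% Wilson interval 0.575% to 0.595%, counting error only), and the next was 0.454% in cat 30. Cat 11 was also the deepest library. It held the highest normalised value of the 12 libraries in 24 of the 60 tested members (40.0%), against 14.5% of all 8820 genes tested. The lowest value lay in cat 15 for 17 members (28.3%), against 13.0% of all genes tested. The median member stood 0.42 above its own mean over libraries in cat 11 on the log2 scale and 0.27 below it in cat 15, whereas in the other 10 libraries this median lay between -0.15 and 0.11. The SRSF genes deviated most in these libraries, with a median of 0.78 in cat 11 and -0.46 in cat 15. The SF3 genes hardly did, with medians of 0.01 and 0.13. Since cats 11 and 15 stand apart in opposite directions, results below are also given without cat 11 where it decides them.

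**Figure D1:**
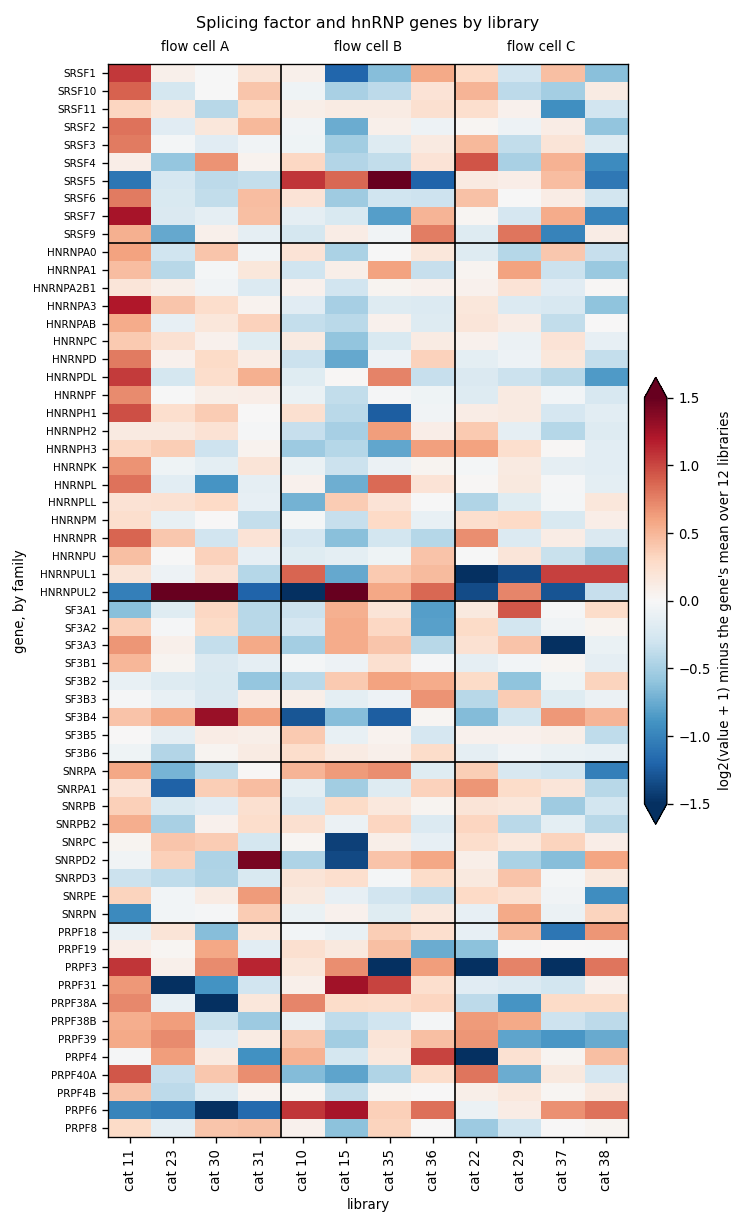
Deviation of log2(value + 1) of each of the 60 tested members (rows, by family) from its mean over the 12 libraries (columns, by flow cell). Red is above and blue below the mean, and the colours end at 1.5. The column of cat 11 is red for most SRSF and HNRNP genes, and the row of PRPF6 is blue in all 4 libraries of flow cell A.

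The SR proteins had 10 tested genes. SRSF3, a small SR protein that also takes part in mRNA export, had the most reads of them. It measured 194 normalised reads in cat 11, 110.1 in cat 23, 99.3 in cat 30 and 108 in cat 31 on flow cell A. On flow cell B it measured 107, 77.6, 98.5 and 124 in cats 10, 15, 35 and 36, and on flow cell C 158, 86.5, 129 and 97.8 in cats 22, 29, 37 and 38. The flow cells overlapped, and cat 11 alone was above the range of the others. SRSF1, which binds purine-rich exonic enhancers, ranged from 19.1 in cat 15 to 94.6 in cat 11 with a median of 47.2, and SRSF7, which contains a zinc knuckle, from 30.2 in cat 38 to 145 in cat 11 with a median of 55.4.

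SRSF5 ran differently from these. It measured 11.6 normalised reads in cat 11, 10.7 in cat 36 and 11.8 in cat 38, and 55.2, 47.7 and 88.2 in cats 10, 15 and 35 of flow cell B. The remaining 6 libraries lay between 19.4 and 35.8. Its coefficient of variation (CV) over the 12 libraries was 72.2%, against the 18% that counting error alone gives, and it was the most variable SRSF gene. SRSF4, the tested SRSF gene with the fewest reads, measured 22.7 ± 8.32 on flow cell A, 20.2 ± 5.62 on B and 23.8 ± 14 on C (SD, n = 4 each).

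All 20 HNRNP genes were tested. HNRNPK, which binds cytosine-rich RNA, had the most reads, and measured 549, 329, 312 and 395 normalised reads in cats 11, 23, 30 and 31, 321, 276, 325 and 356 in cats 10, 15, 35 and 36, and 338, 378, 313 and 309.6 in cats 22, 29, 37 and 38. Apart from cat 11 these libraries lay within 276 and 395. HNRNPA2B1, an hnRNP core protein, was the most even of the 60 tested members relative to its mean, with 253 to 358 normalised reads and a CV of 10.3% (counting error 5.73%). HNRNPUL2, which had the fewest reads, was the most uneven, with no read in cat 10, 29.95 normalised reads in cat 15, and a CV of 108% (counting error 34.8%).

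The SF3A and SF3B subunits had 9 genes, all tested, with a median CV of 26.8%, against 26.9% for the HNRNP and 26.5% for the SNRP genes. SF3B6, which lies next to the branch point adenosine, had the most reads and ranged from 181 in cat 23 to 299 in cat 36, with 235 ± 38.1 on flow cell A, 282 ± 19.8 on B and 230.4 ± 4.94 on C (SD, n = 4 each). SF3B1, the large scaffold of the complex, ranged from 85.0 in cat 30 to 141 in cat 11 around a median of 96.7, with a CV of 15.2%. SF3B5 had a CV of 14%, close to the 12.9% of counting error. SF3B4, which had the fewest reads (2 to 22 per library), was the most variable of the family, with a CV of 58.9%.

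Of the 12 SNRP genes 9 were tested. SNRPN, an Sm protein gene of an imprinted locus, had the most reads and ranged from 105 in cat 11 to 305 in cat 29 with a median of 201. Its RefSeq gene overlaps SNURF, which is made from the same transcript, so the division of reads between both is uncertain. SNRPD2, another Sm protein, had the fewest reads of the tested SNRP genes, and lay between 1.36 in cat 15 (1 read) and 15.2 in cat 31 (19 reads). Of the 13 PRPF genes 12 were tested. PRPF8, the large core protein of the catalytic spliceosome, had the most reads and ranged from 49.0 in cat 15 to 103 in cat 31. PRPF4, a subunit of the tri-snRNP, had the fewest, and lay between 1.35 in cat 22 (1 read) and 17.8 in cat 36 (20 reads).

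The CV was above that of counting error in 59 of the 60 tested members, with SNRPC as the exception, and more than 2 times as large in 58.3% of them, against 55.5% of all genes tested. These shares mix genes of different depth. At 100 or more mean reads the median CV was 21.4% for 20 members and 30.1% for all 1730 genes, and the median ratio of the CV to that of counting error was 2.66 against 4.45. At 30 to 100 mean reads the CV was 30.5% for 24 members and 33.9% for 2653 genes, with ratios of 2.37 and 2.29. Below 30 mean reads it was 38.7% for 16 members and 49.5% for 4437 genes, with ratios of 1.58 and 1.74. The members thus had the lower median CV at each depth, and the ratio was lower for them at the highest and the lowest depth, as a description with no test.

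**Figure D2:**
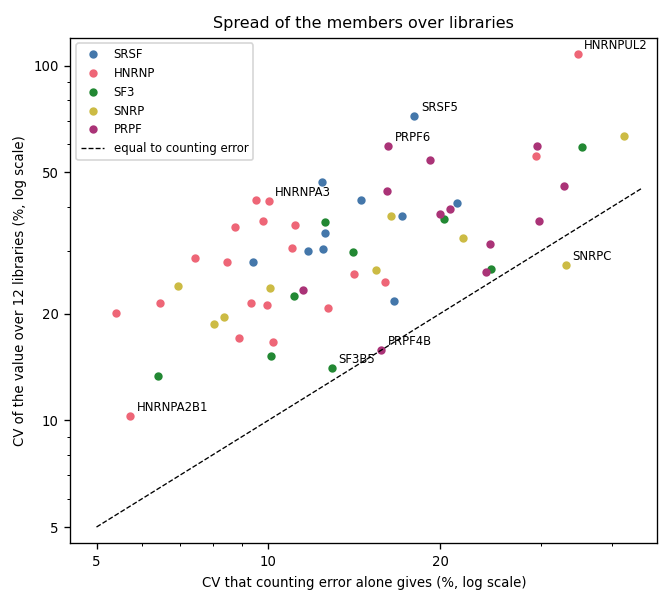
CV of normalised reads over the 12 libraries (vertical axis, log scale) against the CV that counting error alone gives (horizontal axis, log scale) for the 60 tested members, coloured by family. Points on the dashed line vary as much as counting error. SRSF5 (72.2%), PRPF6 (59.3%) and HNRNPUL2 (108%) lie far above the line, and PRPF4B and SNRPC lie at or under it.

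The comparison of flow cell A with flow cells B and C asks how far the members differ between sets of libraries read together. The 1 member that differed was PRPF6, a bridging protein of the tri-snRNP, which was lower on flow cell A. It measured 15.4, 14.8, 8.42 and 13.6 normalised reads in cats 11, 23, 30 and 31. On flow cell B it measured 67.6, 76.2, 41.0 and 57.0 in cats 10, 15, 35 and 36, and on flow cell C 29.7, 34.4, 51.5 and 56.6 in cats 22, 29, 37 and 38. All 4 libraries of flow cell A lay below the other 8, at 13.0 ± 3.18 (SD, n = 4) against 51.8 ± 16.1 (SD, n = 8). The difference was -1.88 ± 0.267 (SE) in log2(value + 1), or 3.68-fold, with an adjusted p of 0.00232 by limma over all 8820 genes.

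The lower PRPF6 value was present against each of the other flow cells, with -2.13 against flow cell B (adjusted p = 0.00489 by limma, where 2.26% of all genes tested were called lower) and -1.63 against flow cell C (adjusted p = 0.0169, where 1.09% were). It rests on 10 to 32 reads per library on flow cell A and on 22 to 77 on the others. The tested genes near PRPF6 in the RefSeq order, none of which overlaps it, did not pass limma's test, with differences of -0.44 for UCKL1 (adjusted p = 0.377), 1.27 for RGS19 (adjusted p = 0.234), 0.77 for SOX18 (adjusted p = 0.298) and 0.07 for TCEA2 (adjusted p = 0.957). RGS19, SOX18 and TCEA2 had 0 to 39, 1 to 32 and 0 to 31 reads per library, with SEs of 0.61, 0.42 and 0.64. UCKL1 had 19 to 75 reads, with an SE of 0.28. At these depths the tests cannot show whether the lower value is confined to PRPF6. Without cat 11 the difference of PRPF6 was -1.97, with an adjusted p of 0.0161 by limma. PRPF6 lost its call only when the reads were left without library scaling (adjusted p = 0.0584), a setting that moves the median of all genes tested from 0.03 to 0.41.

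This was 1 of 60 tested members called lower, where 3.56% of all genes tested were called lower, and 0 of 60 called higher, where 1.81% were (5.37% in either direction). At an unadjusted p under 0.05, 4 members were higher and 3 lower, against 9.78% and 12.1% of all genes tested (21.9% in either direction). DESeq2 on the recovered reads called 3 members, where it called 9.43% of all genes tested, and edgeR called 1, where it called 5.31%. The libraries of flow cell A did not overlap the other 8 in 2 members, PRPF6 and SNRPD3, both of which lay below. Of all genes tested 2.51% lay below and 1.7% above, or 4.21% together.

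SNRPD3, an Sm protein, was the other non-overlapping member and is named after its values were seen, as are the following genes of this comparison. It measured 114, 110.1, 104 and 123 normalised reads in cats 11, 23, 30 and 31, 165, 172, 140.2 and 174 in cats 10, 15, 35 and 36, and 159, 193, 140.2 and 159.6 in cats 22, 29, 37 and 38. The difference was -0.52 ± 0.169 (SE), with an adjusted p of 0.0830 by limma. DESeq2 gave an adjusted p of 0.0219, so the call depends on the tool.

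HNRNPA3, an hnRNP of the A/B group, had the smallest adjusted p among members with higher values on flow cell A. It measured 222, 129, 115 and 99.7 normalised reads in cats 11, 23, 30 and 31, between 68.1 and 85.7 on flow cell B, and 108, 83.1, 81.5 and 63.2 in cats 22, 29, 37 and 38. Cat 11 was far above the others, and cat 31 lay below cat 22. Genes of this group have near-identical copies in mammalian genomes, so the assignment of reads to HNRNPA3 is uncertain. The difference of 0.72 ± 0.228 (SE) had an adjusted p of 0.0748 by limma and 0.0240 by DESeq2, and without cat 11 it was 0.48 with an adjusted p of 0.326 by limma. SF3B4, a subunit that contacts the pre-mRNA near the branch site, measured 12.5 ± 4.05 on flow cell A and 5.89 ± 3.47 on the others (SD, n = 4 and 8), a difference of 1.09 ± 0.416 (SE) with an adjusted p of 0.134 by limma. SF3B4 reached 10 reads only in cats 11, 30 and 31 of flow cell A and in cat 38 of flow cell C. It thus passed the filter only through the flow cell where it was higher, so this difference is a description and no support for a change.

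**Figure D3:**
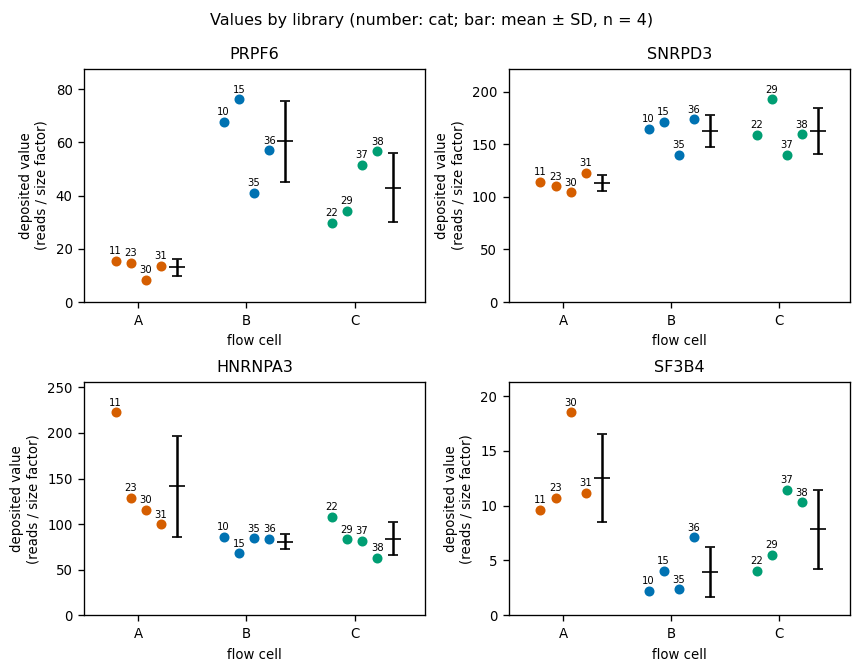
Normalised reads of PRPF6, SNRPD3, HNRNPA3 and SF3B4 (vertical axes, from 0) in each library, by flow cell (horizontal axes), with the cat number above each point. Black bars are the mean ± SD of 4 libraries. PRPF6 and SNRPD3 on flow cell A lie below all other libraries, while HNRNPA3 and SF3B4 overlap.

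By family, the tested HNRNP genes had a median difference of 0.25 between flow cell A and the others, with 17 of 20 above 0, and the SRSF genes one of 0.22, with 8 of 10 above 0. The medians were 0.03 for SF3 (5 of 9 above 0), 0.08 for SNRP (5 of 9) and 0.04 for PRPF (6 of 12). Over the 60 tested members the median was 0.17, with 41 above 0 (68.3%), against a median of 0.03 and 52.2% of all genes tested. This is a description with no test, and the members share the same libraries. Without cat 11 the median over members fell to 0.06, against 0.02 for all genes tested, with 56.7% and 51.3% above 0. On flow cell A the median deviation of the SRSF genes from their own means was 0.78 in cat 11. In cats 23, 30 and 31 it was -0.22, -0.07 and 0.23. For the HNRNP genes it was 0.51 in cat 11, and 0.03, 0.20 and -0.01 in cats 23, 30 and 31.

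**Figure D4:**
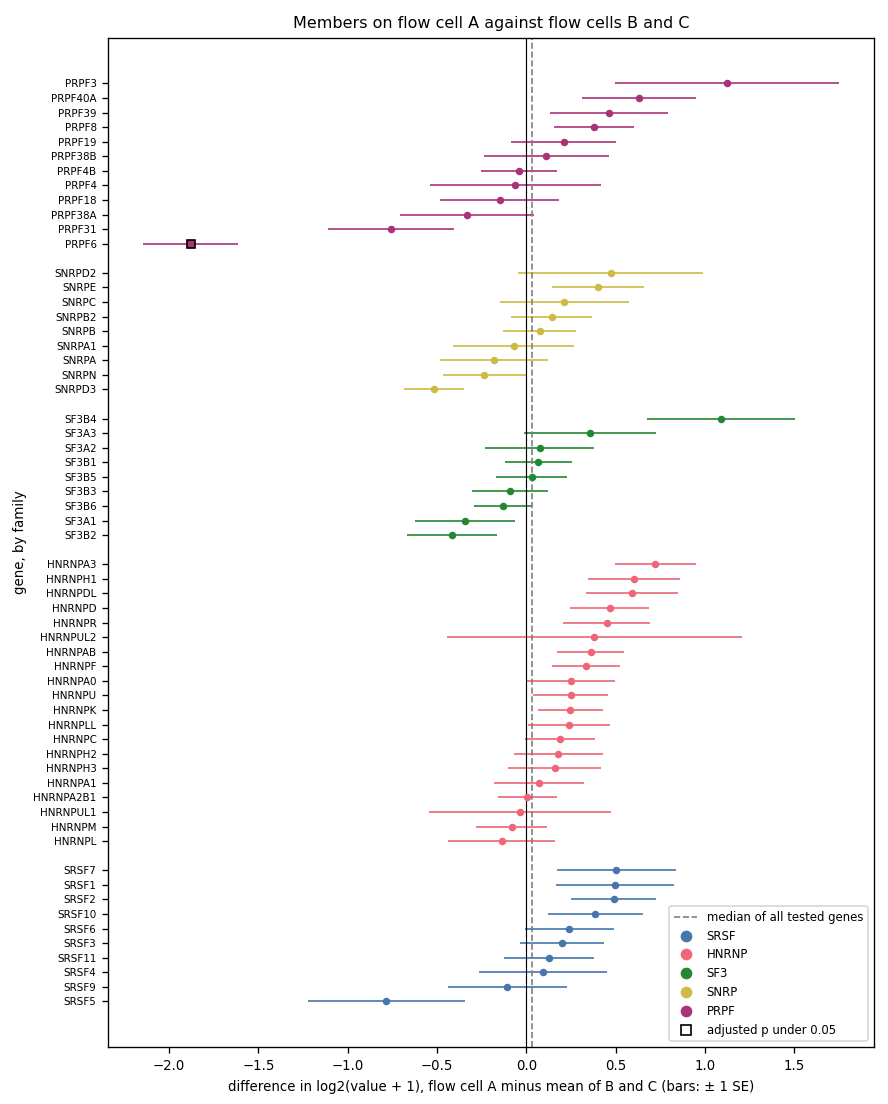
Difference in log2(value + 1) between flow cell A and the mean of flow cells B and C (horizontal axis) for the 60 tested members (vertical axis, by family), with bars of 1 SE from limma. The dashed line is the median of all genes tested, at 0.03. PRPF6, at -1.88, is the only member marked with a square, for an adjusted p under 0.05.

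Some markers of other cells moved with flow cell A too. The 6 smooth muscle and pericyte markers together took 0.0433% to 0.107% of the reads there against 0.00916% to 0.0298% on the other flow cells, with no overlap. Of these genes 2 were called higher by limma, TAGLN (2.63) and CNN1 (5.90), while ACTA2 (0.36), MYH11 (0.14), RGS5 (0.03) and PDGFRB (0.43) had adjusted p-values of 0.454 to 0.972. CNN1 had 0 to 551 reads per library, so the size of its difference depends on values near 0. TAGLN had 21 to 1542 reads, where the whole list had at most 2416, so the summed share says little about the uncalled genes. The 7 fibroblast markers took 0.0950% to 0.310% against 0.0208% to 0.152%. Of these genes 4 were called higher by limma, COL1A1 (2.63), COL1A2 (2.00), COL3A1 (1.84) and POSTN (2.71). DCN (0.44), LUM (0.83) and PDGFRA (0.65) had adjusted p-values of 0.252 to 0.478 by limma. None of the 6 endothelial and 7 macrophage markers was called. Of the 9 cardiomyocyte markers 6 were called lower by limma, while ACTC1 (0.59), MYL2 (-0.16) and RYR2 (-0.51) had adjusted p-values of 0.278 to 0.791. The summed share of the 9 genes overlapped (9.42% to 13.6% against 7.42% to 14%). MYL2 alone had 57300 to 187076 reads per library, where the whole list had at most 229731, so this share says little about the other genes. The part of these markers in the differences of the members was not tested, and in tissue RNA fewer cells of a type and less RNA per cell cannot be told apart.

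Between flow cells B and C no member passed the test by limma, and none had an unadjusted p under 0.05, against 7.89% of all genes tested. No gene of the 8820 passed it either (0.0%). With edgeR and DESeq2 no member passed the adjusted threshold either, where edgeR called no gene (0.0%) and DESeq2 23 genes (0.261%). Each of these tools gave 1 member with an unadjusted p under 0.05, against 7.61% of all genes tested by edgeR and 7.54% by DESeq2. The median difference over the 60 tested members was 0.03, with 30 above and 30 below 0. The PRPF genes had 9 of 12 values above 0 with a median of 0.34, and the SRSF genes had 7 of 10 below 0 with a median of -0.07. The 7 fibroblast markers were all lower on flow cell B than on C, with a median difference of -1.59 and shares of 0.0208% to 0.0575% against 0.0755% to 0.152% of the reads, and 5 of them had an unadjusted p under 0.05 but none an adjusted one by limma.

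The relations with 3 traits of the cats ask whether the members follow age or the histology of the same hearts. The traits were joined by cat number from the study's description of its cohort, as the study did. By Spearman's rho with an exact permutation of the cats (100000 permutations for the 10 cats with an adipocyte percentage), no member and no gene passed an adjusted p under 0.05 for any of the 3 traits (0.0% of all genes tested). The limma slopes called none either. At an unadjusted p under 0.05 there were 6 members for age, 2 positive and 4 negative, against 2.17% and 2.55% of all genes tested (4.72% together). There was 1 for myocardial fibrosis, which was negative, against 1.39% negative and 1.44% positive (2.83%), and there were 2 for adipocyte percentage, 1 in each direction, against 1.53% positive and 1.56% negative (3.1%).

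With age, over 9 cats, rho was negative in 46 of the 60 tested members (76.7%), against 51.4% of all genes tested, and the median rho was -0.20 against -0.02. The values were negative in 8 of 10 SRSF genes (median -0.44), 14 of 20 HNRNP genes (-0.11), 5 of 9 SF3 genes (-0.10), 8 of 9 SNRP genes (-0.20) and 11 of 12 PRPF genes (-0.28). This is a description with no test, since the members share the same 9 libraries. Without cat 11 the share of negative values was 58.3% of the members and 50.2% of all genes tested, and without cat 15 it was 65.0% and 51.0%.

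The members named below for each trait were picked as those with the largest absolute rho. Their p-values for Pearson's r, also after centring flow cells, come from the same cats and are not adjusted for this choice. They therefore give no further support. SF3B3, a large SF3B subunit, had the largest absolute rho with age. It measured 69.9 normalised reads in the oldest cat, cat 30, and 130.0 in the youngest, cat 36, with a median of 76.5 over the 9 cats. Spearman's rho was -0.900 (exact permutation p = 0.00203, adjusted p = 0.812) and Pearson's r -0.68 (exact permutation p = 0.0259). Without the 2 cats farthest from the median age, r was -0.63 or -0.65 depending on which of 2 equally distant cats was left out, and after each flow cell was centred it was -0.80 (exact permutation within flow cells, p = 0.00694). SF3A1, another subunit of the same snRNP, ran the other way, with 75.8 in cat 30, 33.8 in cat 36, a rho of 0.850 (exact permutation p = 0.00607, adjusted p = 0.826) and r = 0.73 (exact permutation p = 0.0304). Its r was 0.50 or 0.57 without 2 cats and 0.82 after centring flow cells (exact permutation p = 0.0243).

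HNRNPL, which binds CA-rich RNA, and PRPF19, a ubiquitin ligase of the spliceosome, were next in each direction. For HNRNPL rho was -0.783 (exact permutation p = 0.0172, adjusted p = 0.858) and r -0.76 (exact permutation p = 0.0150). Its r was -0.38 or -0.61 without 2 cats and -0.78 after centring flow cells (exact permutation p = 0.0833). For PRPF19 rho was 0.767 (exact permutation p = 0.0214, adjusted p = 0.858) and r 0.74 (exact permutation p = 0.0135), and r was 0.55 or 0.44 without 2 cats and 0.75 after centring flow cells (exact permutation p = 0.0590). PRPF19 rested on 11 to 38 reads per library in these 9 cats. Over the alternatives run, the rho nearest to 0 was -0.70 for SF3B3, -0.53 for HNRNPL, 0.25 for SF3A1 and 0.08 for PRPF19.

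With myocardial fibrosis, over 8 cats, 32 tested members were negative and 27 positive, and the median rho was -0.05, against 0.00 for all genes tested. PRPF8 had the largest absolute value. It ranged from 49.0 in cat 15 to 101.0 in cat 30, with a rho of -0.738 (exact permutation p = 0.0458, adjusted p = 1.0) and r = -0.80 (exact permutation p = 0.0115). Without the 2 cats farthest from the median, cats 23 and 15, r was -0.44, and within the 2 flow cells with more than 1 cat it was -0.94 over 7 cats (exact permutation p = 0.0139). The next values, -0.60 for HNRNPM and HNRNPUL1, 0.57 for SRSF11, and 0.48 for PRPF38B and PRPF39, had permutation p-values of 0.132 to 0.243 (exact, unadjusted) and an adjusted p of 1.0 each. Without cats 23 and 15 the r of HNRNPM went from -0.66 to -0.14 and that of HNRNPUL1 from -0.65 to 0.21, so these rested on those 2 cats.

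With adipocyte percentage, over 10 cats, 36 tested members were negative and 24 positive, and the median rho was -0.08, against 0.01 for all genes tested. By the study's methods, the slides of cats 10, 15, 23, 30 and 36 were stained and scanned in a separate batch. Their adipocytes were scored by a separately trained classifier. The relations were not adjusted for this batch, and its part in them was not tested. HNRNPM, an hnRNP that binds GU-rich RNA, measured 75.8 to 119.7 with a median of 92.9. Its rho was -0.745 (permutation p = 0.0175, adjusted p = 1.0) and its r -0.62 (permutation p = 0.0553). Its r was -0.77 without cats 36 and 31 and -0.68 after centring flow cells (permutation p = 0.0651). For SNRPN rho was 0.685 (permutation p = 0.0349, adjusted p = 1.0) and r 0.49 (permutation p = 0.151), and r was 0.36 without these cats and 0.59 after centring flow cells (permutation p = 0.0122). SF3A2 had a rho of -0.56 and SF3B6 one of 0.60, with permutation p-values of 0.0982 and 0.0735, and their r without cats 36 and 31 was 0.09 and 0.10.

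**Figure D5:**
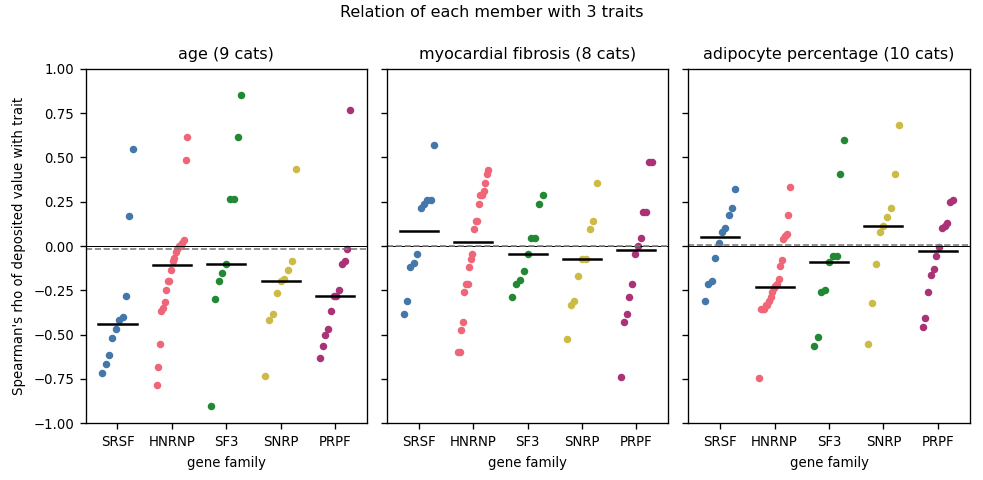
Spearman's rho of normalised reads with age, myocardial fibrosis and adipocyte percentage (one panel each, vertical axis from -1 to 1) for the 60 tested members, by family (horizontal axis). Black bars are family medians and the dashed line is the median of all genes tested. With age most points lie below 0, with SF3B3 at -0.900 and SF3A1 at 0.850 as the extremes, and none of the values passed the adjusted test.

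The members also varied among themselves in a common or an opposite direction, which is described here by Spearman's rho over the 12 libraries, with no test, since all pairs share the same libraries and depths. The median over the 45 pairs of SRSF genes was 0.40, over the 190 pairs of HNRNP genes 0.27, and it was -0.09 for SF3, -0.01 for SNRP and 0.00 for PRPF pairs. Over all pairs of genes tested it was 0.0. Without cat 11 the medians were 0.25 for SRSF and 0.14 for HNRNP pairs.

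The pairs most alike were SRSF1 with SRSF3 (0.923) and SRSF1 with SRSF7 (0.916), followed by the SF3 subunit SF3A3 with the Sm protein SNRPB (0.888). These values were 0.900, 0.891 and 0.855 without cat 11, and 0.762, 0.846 and 0.881 after each flow cell was centred. Among the most opposite pairs were SF3A1 with SRSF1, at -0.804, and PRPF18, a factor of the second catalytic step, with SRSF4, at -0.783. The SRSF genes had the highest of the 5 family medians, with and without cat 11, while SRSF5 was in none of the 10 most alike pairs.

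Other genes of the splicing machinery were taken from 5 lists, of which 106 genes were tested. By limma 1 of these was called higher on flow cell A (1.81% of all genes tested) and 0 lower (3.56%). The median difference was 0.17, with 66.0% above 0, against 0.03 and 52.2% of all genes tested. Without cat 11 it was 0.10, with 55.7% above 0. These are descriptions with no test. By list the medians were 0.20 for 27 tissue-dependent regulators of splicing, 0.11 for 17 SR-related proteins and their kinases, 0.12 for 37 other spliceosome proteins, 0.19 for 14 exon junction and decay factors and 0.48 for 11 snRNP assembly factors, and without cat 11 they were 0.23, -0.02, 0.02, 0.11 and 0.40.

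The called gene was SRPK1, a kinase that phosphorylates SR proteins. It measured 37.6, 34.9, 29.5 and 35.1 normalised reads in cats 11, 23, 30 and 31, between 10.7 and 17.7 on flow cell B and between 14.9 and 24.4 on flow cell C, so flow cell A lay above all others. The difference was 1.06 ± 0.248 (SE), with an adjusted p of 0.0222 by limma. The call was lost without cat 11 (adjusted p = 0.102) and without cat 31 (adjusted p = 0.0730), against flow cell C alone (0.82, adjusted p = 0.142), and with unscaled reads (adjusted p = 0.0755). CLK1, another SR protein kinase, had a difference of -0.40 (adjusted p = 0.280 by limma).

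MBNL1, a muscleblind protein that drives adult splicing patterns in heart and muscle, measured 267, 224, 264 and 204 normalised reads on flow cell A and 114 to 173 on the others, with no overlap. Its difference of 0.59 ± 0.175 (SE) had an adjusted p of 0.0587 by limma and 0.00973 by DESeq2. RBM20, the heart regulator of titin splicing, measured 22.7, 47.0, 49.7 and 31.1 on flow cell A and 44.9 to 64.8 on the others, a difference of -0.69 ± 0.232 (SE) with an adjusted p of 0.0910 by limma. CELF2 (0.71, adjusted p = 0.0976), QKI (0.67, 0.109) and RBM24 (0.10, 0.822), which are RNA-binding regulators of muscle splicing, did not pass limma's test either. RBFOX1 had at most 4 reads in any library and was not tested.

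In the other lists the genes with the smallest adjusted p in each direction were PPIL1 (0.73, adjusted p = 0.161 by limma) and PUF60 (-0.51, 0.161) among spliceosome proteins, SMG6 (1.56, 0.0748) and SMG5 (-0.73, 0.136) among the factors of nonsense-mediated decay, and CLNS1A (0.66, 0.0749) and SNUPN (-0.20, 0.743) in snRNP assembly and import. None of these 6 passed limma's test. By DESeq2 the adjusted p was 0.0318 for SMG6, 0.0342 for CLNS1A and 0.0471 for QKI. By limma SMG6 was called without cat 35 (adjusted p = 0.0452), and SMG5 and QKI were called without cat 30 (0.0390 and 0.0235). In the relations with the 3 traits no gene of these lists passed an adjusted p under 0.05.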

How the data were processed

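Native RNA from the left ventricle of 12 cats was read on 3 Oxford Nanopore flow cells, 4 barcoded libraries on each and 1 library for each cat. Per the study's methods and labels, the authors filtered reads on base quality, aligned them to felCat9 (minimap2) and counted reads per gene (featureCounts). The strand setting is not given in the sources used here. The signal that the authors deposited is reads divided by a size factor of each library, a step the sources used here do not state. Dividing by the step between values gave whole reads for 100% of them (tolerance 1e-06). Depth was 789257 to 2263110 reads, and genes with few reads carry a large counting error.

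Genes reaching 10 reads in 3 or more libraries were tested on log2(value + 1) with limma's moderated test and an intensity trend, over all 12 libraries with flow cell as the group. Traits were tested with Spearman's rho and two-sided permutation of cats. Adjusted p-values are Benjamini-Hochberg over 8820 genes, called under 0.05. The fits were tested on simulated data. Replicates are separate cats. The outcome of each cat is given in the study's description of its cohort and not in the labels, and outcome groups were not compared.

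The members and lists were chosen with earlier results of these data known. The genes named are up to 10 called members in each direction, the 2 members in each direction with the largest absolute rho per trait (ties kept), the tested member with the most and the fewest reads per family, and, in the other lists, the smallest adjusted p in each direction and RBM20, RBM24, MBNL1, RBFOX1, CELF2 and QKI. Others were named after their values were seen. Alternatives were pseudocounts of 0.5 and 2, 2 other filters, TMM scaling, unscaled reads, edgeR's quasi-likelihood test and DESeq2 on the recovered reads, each library left out, flow cells B and C taken singly, slopes with and without flow cell, cats 22 and 29 entered, and, added after seeing the data, the columns of cats 10 and 15 exchanged. RefSeq symbols (F.catus_Fca126_mat1.0, another assembly than felCat9) matched 65 of 65 members and were used for gene order only. Tools were R 4.3.3, limma 3.58.1, edgeR 4.0.16, DESeq2 1.42.0, Python 3.11.15 and scipy 1.17.1.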

Additional observations from a re-analysis of the deposited data

Results flagged for a closer look

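In groups of 4 libraries, 6 of 105 values tested stood apart from the other 3 of their flow cell by more than Dixon's 95% limit, which chance alone gives in about 1 in 20 groups. For SRSF3, cat 11 had 194 normalised reads against 99.3 to 110.1 in the other libraries of flow cell A. For SF3B4, cat 30 had 18.5 against 9.65 to 11.2 on the same flow cell. On flow cell C, cat 22 had 10.8 for PRPF19 against 16.6 to 17.2, and 35.1 for PRPF39, a U1-associated factor, against 11.4 to 12.5. For RBM20, cat 15 had 44.9 against 58.8 to 60.7 on flow cell B. RBFOX1 had 0.842 in cat 30, which is 1 read, against 0 in the other libraries of flow cell A, where 3 reads would correspond to 1.45 to 4.03. The values of PRPF19, SF3B4 and RBFOX1 rest on 8, 22 and 1 reads.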

How the results depend on the processing

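The count of members called between flow cell A and the others stayed at 1 in every alternative except DESeq2 (3) and unscaled reads (0), and when each library was left out. For flow cells B and C and for the 3 traits it stayed at 0 throughout. The count of other splicing genes called (1) was 7 with DESeq2, 0 with unscaled reads and 0 against flow cell C alone, and 0 to 3 without each library in turn (0 without cat 11 or cat 31). Over all genes the calls fell from 474 to 54 without cat 11, 165 without cat 31, 283 without cat 15, 314 without cat 29, 102 with unscaled reads and rose to 832 with DESeq2. The cause was not tested. No paired analysis was possible because the replicate numbers are cat numbers and no flow cells share any.

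Among single genes that passed no test, signs changed as follows. With unscaled reads the values became 0.26 for SF3B6, 0.16 for SNRPN, 0.26 for PRPF4 and 0.18 for SNUPN between flow cells, -0.45 for SRSF11 and -0.024 for PRPF39 with myocardial fibrosis, and -0.018 for SF3B6 with adipocyte percentage. The slope of PRPF39 on fibrosis with flow cell in the fit was -0.011 per SD. Against flow cell C alone the values were 0.012 for SF3B6, 0.28 for PRPF4, 0.00022 for SNUPN and -0.19 for RBM24, and against flow cell B alone -0.056 for HNRNPUL2. Leaving out each library in turn gave -0.018 to 0.30 for SRSF3, -0.11 to 0.31 for SRSF4, -0.11 to 0.86 for HNRNPUL2, -0.42 to 0.031 for SNRPN, -0.34 to 0.23 for PRPF4, -0.47 to 0.093 for SNUPN and -0.0031 to 0.29 for RBM24. Genes with few reads are limited by counting error, and 3 reads mark the level under which a library cannot show a gene.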

Other observations

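Some members with few reads took values of very different size in single libraries, and the following were picked out after their values were seen. PRPF3, a subunit of the tri-snRNP, measured 1.35 to 1.58 normalised reads in cats 22, 35 and 37 (1 to 2 reads) and 9.40 to 20.7 in the other 9 libraries (7 to 41 reads). HNRNPUL1, an hnRNP of the U type, measured 2.70 and 3.33 in cats 22 and 29 (2 and 3 reads) and 21.5 and 21.3 in cats 37 and 38 (15 and 29 reads). All of these were on flow cell C, and HNRNPUL1 measured 5.45 to 19.2 on the other flow cells. HNRNPUL2 had 16.1 and 18.5 in cats 23 and 30 (12 and 22 reads), and 1.93 and 1.60 in cats 11 and 31 (4 and 2 reads), all on flow cell A.

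SNURF, which overlaps SNRPN and was listed as its neighbour and not as a member, was called lower on flow cell A, with 154 to 234 normalised reads against 283 to 758 and a difference of -1.07 (adjusted p = 0.0124 by limma). SNRPN measured 105 to 269 against 181 to 305, a difference of -0.24 (adjusted p = 0.588). In the same region NDN had a difference of -0.76 (adjusted p = 0.116) and UBE3A one of -0.03 (adjusted p = 0.946).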
